A study of Mus musculus with 8 samples.

Results

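The transcripts of the autophagy pathway and of the lysosome were measured in sorted cardiac fibroblasts of wild-type mice and of mice with a Cre-driven deletion of Lmna. Members were chosen by symbol: every Atg gene with a number, every cathepsin gene written as Cts and 1 letter, every gene beginning with Atp6v, and 11 genes listed by name, which were Map1lc3a, Map1lc3b, Gabarap, Gabarapl1, Gabarapl2, Sqstm1, Becn1, Ulk1, Tfeb, Lamp1 and Lamp2. Atp6v is the prefix of most subunits of the vacuolar proton pump, and genes with it were taken by symbol alone. There were 71 members among the 18957 genes of the count files, and 57 of them had enough counts to be tested. RNA came from live PDGFRA+ cells without hematopoietic lineage markers, sorted from the ventricles of mice of the C57BL/6 (mixed) strain aged 3 to 4 weeks. The libraries were 4 labelled WT and 4 labelled Pdgfra-Cre:Lmna F/F. The Pdgfra-Cre:Lmna F/F mice, whose cells are called LMNA-deficient here, carried a Pdgfra-driven Cre transgene on a bacterial artificial chromosome and Lmna with a floxed exon 2 on both alleles. The study still detected LMNA protein in a minority of the PDGFRA+ cells of these mice. The WT mice were littermates with wild-type alleles only, so presence of the transgene and loss of Lmna cannot be told apart. Pdgfra is also active in other mesenchymal cells and, during development, in some cardiac myocytes. Both groups went through the same digestion and sort, and no member was called at an adjusted p under 0.05.

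Macroautophagy encloses cytoplasm in a double membrane, the autophagosome, and delivers it to the lysosome. A kinase complex around ULK1 and a lipid kinase complex around Beclin 1 start the membrane, ATG9 and ATG2 bring lipid to it, and the ATG conjugation enzymes fix small proteins of the ATG8 family onto it. ATG8 proteins bind cargo receptors such as SQSTM1, after which the vesicle fuses with a lysosome that the V-ATPase keeps acid and in which cathepsins digest proteins. TFEB is the transcription factor known for driving many of these genes through a motif called the CLEAR element, and lamin A/C, the product of Lmna, is a structural protein of the nuclear lamina. Transcript levels do not measure autophagic flux, and in bulk RNA fewer cells of a type and less RNA per cell cannot be told apart.

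A promoter feature that the choice by symbol did not use, the E-box core CACGTG and its longer palindrome TCACGTGA, the CLEAR core, stood in a minority of the members. RefSeq promoter windows on GRCm38.p6, from 250 bases before to 50 after a start, were matched by symbol for 56 of the 71 members and for 14590 of all genes, and a gene with several starts was counted once if any window held the motif. Both motifs read the same on either strand, and the longer contains the shorter. The E-box core stood in 13 of the 56 members (23.2%) and in 9.91% of all genes matched, and TCACGTGA in 6 members (10.7%) and 1.60% of all genes. Another sequence, TCATGTG, searched on both strands, stood in 3 members (5.36%) and 3.15% of all genes. Per window rather than per gene, 7.15% of 32851 windows held CACGTG and 0.974% held TCACGTGA. The stretches below show 1 site in each of the 6 members, with TCACGTGA in capitals, 5′ to 3′ on the strand of the gene, and Ctsa has another site from 4 to 11 bases after the start. In GENCODE M21 those of Atg3 and Atp6v0d1 lie upstream of the gene, that of Atp6v1a in an intron of a longer transcript, and those of Atp6v0e, Ctsa and Ctsd in an exon.
Atg3, chr16:45158746-45158775, plus strand: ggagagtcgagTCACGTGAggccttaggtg
Atp6v1a, chr16:44139373-44139402, minus strand: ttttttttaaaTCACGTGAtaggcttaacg
Ctsd, chr7:142387908-142387937, minus strand: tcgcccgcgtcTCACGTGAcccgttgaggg
Ctsa, chr2:164833749-164833778, plus strand: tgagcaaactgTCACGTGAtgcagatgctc
Atp6v0d1, chr8:105566050-105566079, minus strand: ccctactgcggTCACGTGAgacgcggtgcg
Atp6v0e, chr17:26676387-26676416, plus strand: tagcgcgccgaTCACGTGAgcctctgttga

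Total counts ranged from 2080555 in WT replicate 2 to 12502949 in LMNA-deficient replicate 4, and members took 0.630 to 0.820% of the counts of the WT and 0.629 to 0.811% of those of the LMNA-deficient libraries. Lmna itself lay between 274 and 483 CPM (counts scaled to the library size with TMM factors) in the WT and between 90.4 and 130 CPM in the LMNA-deficient cells. Its log2 fold change was -1.72 (SE 0.22, edgeR adjusted p = 0.00492), and reads on the floxed exon cannot be separated in gene counts. All 8 mesenchymal markers, among them Pdgfra and Col1a1, had counts in each library and summed to 42217 to 58684 CPM. Replicate 4 of the Pdgfra-Cre:Lmna F/F group stood apart in markers of other cells. Its 10 macrophage markers summed to 613 CPM, against 66.6 to 167 CPM in the other LMNA-deficient and 78.1 to 216 CPM in the WT libraries, with Cd68 and Fcer1g at 0 in some libraries. Its 6 cardiomyocyte markers summed to 5408 CPM, against 267 to 852 and 646 to 942 CPM. Values without it are given for many of the members that it moved. The 6 endothelial markers, with counts in each library, summed to 175 to 265 CPM in the WT and 97.4 to 211 CPM in the LMNA-deficient libraries. Cdh5 lay lower in every LMNA-deficient library at a log2 fold change of -1.17 (SE 0.38, edgeR adjusted p = 0.215). The groups overlapped for the others. Pecam1 gave -0.56 (SE 0.31), Kdr -0.46 (SE 0.29), Emcn -0.17 (SE 0.53) and Tie1 -0.12 (SE 0.38), while Vwf went the other way at 0.40 (SE 0.41). The part of endothelial cells in the lower V0 and hydrolase levels described below was not tested. Values of single libraries follow in the order of replicates 1 to 4.

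Of the 57 tested members, 0 were called by the quasi-likelihood test of edgeR after Benjamini-Hochberg adjustment over all 13036 genes tested, where 53 genes (0.407%) were called. None of the 16 alternative settings, DESeq2 and limma-voom among them, called a member. The smallest adjusted p of a member was 0.267 with all libraries in edgeR and 0.117, for Atg3, over the alternatives. At an unadjusted p under 0.05 there were 8 members (14.0%), beside 11.9% of all genes. Of these, 6 (10.5%) were higher in the LMNA-deficient fibroblasts, beside 6.24% of all genes, and 2 (3.51%) were lower, beside 5.65%. The 4 libraries of 1 genotype lay wholly above or below those of the other for 4 of the 57 members, and for 8.03% of all genes. Of the tested members 29 had a higher and 28 a lower fitted level, with a median log2 fold change of 0.01, where the median of all genes tested was 0.02. The median SE of a member's log2 fold change was 0.26, and differences as large as the 0.94 of Atg4d, the 1.24 of Atg3 and the 1.84 of Ctss did not pass the adjusted threshold with 4 libraries a group.

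**Figure D1:**
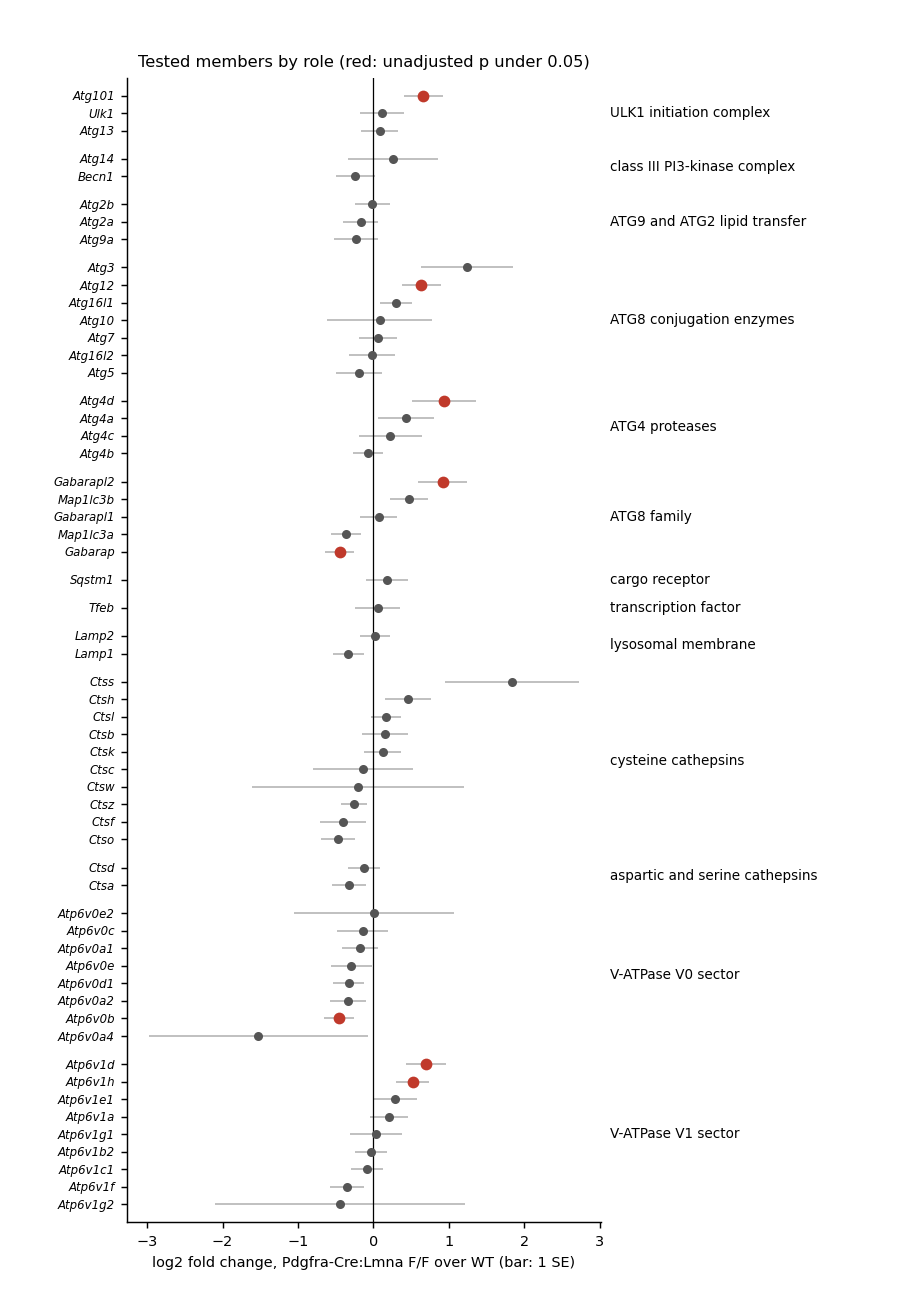
Log2 fold change of the 57 tested members (x axis, LMNA-deficient over WT, with bars of 1 SE), grouped by role. The 8 members at an unadjusted p under 0.05 are red, 6 to the right of 0 and 2 to the left, and none of the 57 passed the adjusted threshold.

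The kinase complex that starts autophagy was represented by Ulk1, its catalytic subunit, and by Atg13 and Atg101, its regulatory subunits. Atg101 (chromosome 15 from 101284272 to 101290945) had 31.2, 26.2, 25.7 and 25.0 CPM in the WT and 27.4, 54.7, 46.5 and 42.7 CPM in the LMNA-deficient libraries. Replicate 1 of the LMNA-deficient group fell within the WT range and the other 3 lay above it. The means were 27.0 ± 2.84 and 42.8 ± 11.4 CPM (SD, n = 4), and the log2 fold change was 0.66 (SE 0.26, edgeR adjusted p = 0.334). Ulk1 averaged 53.0 ± 7.32 CPM in the WT and 57.2 ± 26.5 CPM in the LMNA-deficient fibroblasts (SD, n = 4), a log2 fold change of 0.11 (SE 0.29). The wide spread in the second group came from values between 35.2 and 92.6 CPM, the highest in replicate 4, and without that library the log2 fold change of Ulk1 was -0.22 (SE 0.26). Atg13 gave 0.08 (SE 0.24).

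Beclin 1 (Becn1) and ATG14 belong to the lipid kinase complex that marks the site of the new membrane. Becn1 ranged from 31.2 to 68.4 CPM in the WT and from 35.2 to 49.1 CPM in the LMNA-deficient fibroblasts, with a log2 fold change of -0.24 (SE 0.26) that was -0.04 without WT replicate 3 and -0.40 without WT replicate 2. Atg14 had 18.1, 7.55, 1.28 and 12.9 CPM in the WT and 11.8, 11.9, 10.2 and 14.4 CPM in the LMNA-deficient libraries. WT replicate 3, with 8 counts, held the lowest value, and the log2 fold change of 0.26 (SE 0.60) was -0.12 (SE 0.42) without it. The lipid scramblase gene Atg9a and the lipid transfer genes Atg2a and Atg2b had log2 fold changes of -0.23, -0.17 and -0.02 with SEs of 0.29, 0.23 and 0.23. Without LMNA-deficient replicate 4 the first 2 were -0.47 (SE 0.29) and -0.33 (SE 0.23).

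The conjugation enzymes work in 2 linked reactions. ATG7 activates ATG12 and the ATG8 proteins, ATG10 passes ATG12 to ATG5, and ATG3 passes ATG8 to lipid with the help of the complex of ATG12, ATG5 and ATG16L1. Of the 7 genes, 5 had higher and 2 lower fitted levels in the LMNA-deficient fibroblasts, with a median log2 fold change of 0.08, and their summed level was 225 ± 22.1 CPM in the WT and 278 ± 29.1 CPM in the LMNA-deficient libraries (SD, n = 4). Atg3, whose promoter motif is printed above, had the largest difference.

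Atg3 (chromosome 16 from 45158785 to 45188538) had 31.0, 31.2, 0.639 and 19.1 CPM in the WT and 47.1, 53.8, 41.3 and 48.2 CPM in the LMNA-deficient libraries. All 4 LMNA-deficient libraries lay above all 4 WT libraries, and WT replicate 3 stood far below the rest of its group with 4 counts. On the log2 scale the difference was 1.24 (SE 0.61, edgeR adjusted p = 0.451). Without WT replicate 3 it was 0.82 (SE 0.26, adjusted p = 0.243), a smaller difference with a smaller error.

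Atg12, the ubiquitin-like protein of the first reaction, had 28.2, 21.1, 32.1 and 39.8 CPM in the WT and 45.7, 36.7, 53.8 and 53.3 CPM in the LMNA-deficient libraries. Only WT replicate 4 overlapped with the LMNA-deficient range. The fitted log2 fold change was 0.63 (SE 0.26, edgeR adjusted p = 0.350). Atg16l1, the scaffold that directs lipidation, averaged 47.8 ± 7.83 and 59.0 ± 3.89 CPM (SD, n = 4), a log2 fold change of 0.30 (SE 0.21). Atg7, Atg10, Atg5 and Atg16l2 had log2 fold changes between -0.19 and 0.08, each smaller than its SE, and Atg10 was at -0.51 (SE 0.79) without LMNA-deficient replicate 4. Atg5, at -0.19, was at -0.56 without LMNA-deficient replicate 2 and at -0.06 without replicate 4.

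The 4 ATG4 proteases trim new ATG8 proteins and release them from lipid again. Atg4b, the most abundant per length at 45.0 ± 2.79 TPM in the WT and 42.7 ± 8.74 TPM in the LMNA-deficient fibroblasts (SD, n = 4, counts scaled for spliced length and library size), differed by -0.08 on the log2 scale (SE 0.20). Atg4d (chromosome 9 from 21265293 to 21277772) had 19.8, 20.6, 7.19 and 17.2 CPM in the WT and 11.2, 40.9, 34.4 and 37.2 CPM in the LMNA-deficient libraries. Replicate 1 of the second group fell among the WT values and the other 3 lay well above them. The log2 fold change of Atg4d was 0.94 (SE 0.42, edgeR adjusted p = 0.401). It was 0.45 with limma-voom and 0.69 to 1.21 with 1 library left out, where 3 of 8 fits kept an unadjusted p under 0.05. Atg4a and Atg4c gave 0.43 (SE 0.37) and 0.23 (SE 0.42), and the former 0.23 (SE 0.40) without replicate 4.

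The ATG8 family holds the LC3 proteins (Map1lc3a, Map1lc3b) and the GABARAP proteins (Gabarap, Gabarapl1, Gabarapl2), and its members differed in direction. Gabarap was the most abundant member of all 71 per length, at 1272 ± 89.9 TPM in the WT and 921 ± 92.9 TPM in the LMNA-deficient fibroblasts (SD, n = 4), and Gabarapl2 the least abundant of the 5 at 22.6 ± 7.13 and 42.1 ± 12.9 TPM. The fitted level was higher for 3 and lower for 2 of the 5.

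Gabarapl2 (chromosome 8 from 111940703 to 111953612) had 14.3, 22.1, 11.02 and 15.8 CPM in the WT and 20.3, 30.7, 38.8 and 28.4 CPM in the LMNA-deficient libraries. Replicate 1 of the LMNA-deficient group lay under WT replicate 2 and the other 3 lay above every WT library. The log2 fold change was 0.92 (SE 0.33, edgeR adjusted p = 0.267), the lowest p of any member, and it lay between 0.76 and 1.10 whichever library was left out.

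Gabarap (chromosome 11 from 69991143 to 69994951) went the other way, with 487, 564, 593 and 598 CPM in the WT and 404, 424, 323 and 494 CPM in the LMNA-deficient libraries. Only LMNA-deficient replicate 4 reached the WT range. Its log2 fold change was -0.45 (SE 0.20, edgeR adjusted p = 0.385). Map1lc3a, also lower, averaged 117 ± 11.7 and 91.0 ± 19.8 CPM (SD, n = 4), a log2 fold change of -0.37 (SE 0.20).

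Map1lc3b, which encodes the LC3B protein that most assays of autophagosomes stain, had 247, 179, 228 and 229 CPM in the WT and 195, 242, 321 and 471 CPM in the LMNA-deficient libraries. The second group reached above the WT range in replicates 3 and 4 only. The fitted log2 fold change of 0.47 (SE 0.25, edgeR adjusted p = 0.498) was 0.19 (SE 0.21) without replicate 4. Gabarapl1 had 0.07 (SE 0.24), and -0.24 (SE 0.19) without that library.

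Sqstm1 encodes p62, a receptor that carries ubiquitinated cargo to ATG8 proteins and is itself degraded in the process. It had 462, 399, 628 and 384 CPM in the WT and 382, 403, 456 and 878 CPM in the LMNA-deficient libraries. In 3 of the 4 LMNA-deficient libraries it lay within or just under the WT range, and in replicate 4 it was higher than in every other library. The log2 fold change was 0.18 (SE 0.27, edgeR adjusted p = 0.869), and without replicate 4 it was -0.18 (SE 0.21). The macrophage and cardiomyocyte markers of replicate 4 moved with this value, and their part in it was not tested.

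**Figure D2:**
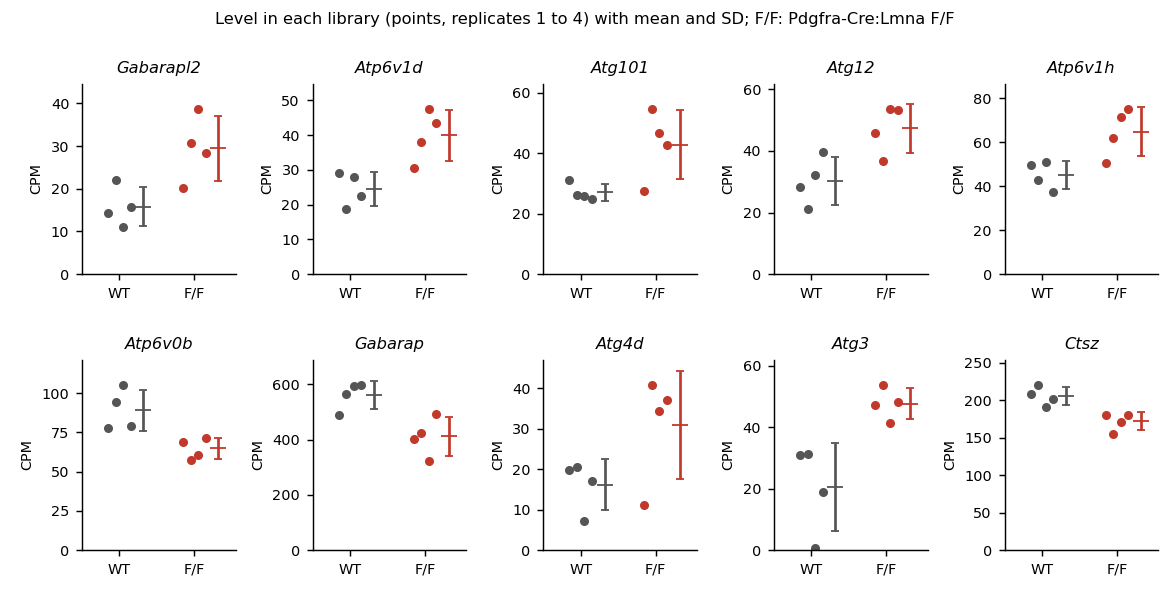
CPM in each library for the 10 members with an unadjusted p under 0.05 or with no overlap between the genotypes, with the mean and SD of each group of 4. Atg3, Atp6v1d, Atp6v0b and Ctsz show no overlap, and Atg3 in WT replicate 3 is near 0.

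The transcription factor gene Tfeb had 52.8, 33.7, 54.3 and 39.0 CPM in the WT and 50.5, 29.1, 73.8 and 34.3 CPM in the LMNA-deficient libraries. Replicate 3 of the LMNA-deficient group lay above every WT library, replicate 2 lay below every WT library, and the other 2 lay within the WT range. Its log2 fold change was 0.05 (SE 0.30, edgeR adjusted p = 0.967). Of the 13 members with CACGTG in a promoter window, all tested, 5 had a higher and 8 a lower fitted level, with a median log2 fold change of -0.19. The median was 0.03 for the 32 tested members with a window and no such motif. Of the 6 members with TCACGTGA, 2 were higher (Atg3 and Atp6v1a) and 4 lower (Ctsa, Ctsd, Atp6v0d1 and Atp6v0e), with a median of -0.21. The lean of the members with TCACGTGA depended on the window. With only the 250 bases before the start, 4 members held TCACGTGA, 2 higher and 2 lower, with a median of 0.04. CACGTG then stood in 10 members, 4 higher and 6 lower, with a median of -0.16. These medians are descriptions of the members and were not tested.

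Lamp1 and Lamp2, the main glycoproteins of the lysosomal membrane, were among the most abundant members. Lamp1 stood at 772 ± 117 TPM in the WT and 609 ± 35.2 TPM in the LMNA-deficient fibroblasts (SD, n = 4). In CPM it had 571, 753, 882 and 690 in the WT and 579, 587, 484 and 651 in the LMNA-deficient libraries, so that the lowest WT library overlapped with the second group. Its log2 fold change was -0.33 (SE 0.20, edgeR adjusted p = 0.568). Lamp2, whose splice form LAMP2A is the receptor of chaperone-mediated autophagy, was at 604 ± 85.1 and 610 ± 84.0 TPM (SD, n = 4), a log2 fold change of 0.02 (SE 0.20).

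Among the cathepsins, the digestive proteases of the lysosome, the most abundant per length were Ctsd, the main aspartic protease, and the cysteine proteases Ctsl, Ctsb and Ctsz. Their WT means were 425 ± 94.2, 365 ± 49.7, 351 ± 154 and 341 ± 31.1 TPM (SD, n = 4), so that the spread over libraries does not order these 4. In the LMNA-deficient fibroblasts they were 388 ± 21.4, 406 ± 33.9, 385 ± 69.6 and 283 ± 25.2 TPM (SD, n = 4). The log2 fold changes of Ctsd, Ctsl and Ctsb were -0.13 (SE 0.21), 0.17 (SE 0.20) and 0.15 (SE 0.30), and those of Ctsl and Ctsb were 0.05 and 0.01 without LMNA-deficient replicate 4.

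Ctsz, a carboxypeptidase (chromosome 2 from 174427493 to 174439039), had 209, 221, 191 and 201 CPM in the WT and 180, 156, 171 and 181 CPM in the LMNA-deficient libraries. Every LMNA-deficient library lay below every WT library, with a narrow spread in both groups of 6.08% and 6.86% of the mean. The fitted log2 fold change was -0.26 (SE 0.17, edgeR adjusted p = 0.613). Ctsa, which protects β-galactosidase and neuraminidase in the lysosome, averaged 248 ± 47.9 and 198 ± 53.2 CPM (SD, n = 4), a log2 fold change of -0.33 (SE 0.23). Ctso, a cysteine protease, gave -0.47 (SE 0.23, adjusted p = 0.435), with 60.0 to 99.5 CPM in the WT and 43.2 to 63.3 CPM in the LMNA-deficient libraries.

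Ctss, the cathepsin of antigen-presenting cells, had the largest positive log2 fold change of the tested members at 1.84 (SE 0.89, edgeR adjusted p = 0.443). Its values were 6.63, 5.53, 8.47 and 0.518 CPM in the WT and 3.62, 4.90, 7.94 and 58.4 CPM in the LMNA-deficient libraries. A single library, replicate 4, held the difference, and without it the log2 fold change was 0.06 (SE 0.90). The macrophage markers were at their highest in the same library, and their part was not tested. Ctsk, a collagen-degrading cathepsin best known from osteoclasts, was at 158 ± 26.7 and 168 ± 42.3 TPM (SD, n = 4), with a log2 fold change of 0.12 (SE 0.24) that was -0.08 (SE 0.23) without replicate 4.

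**Figure D3:**
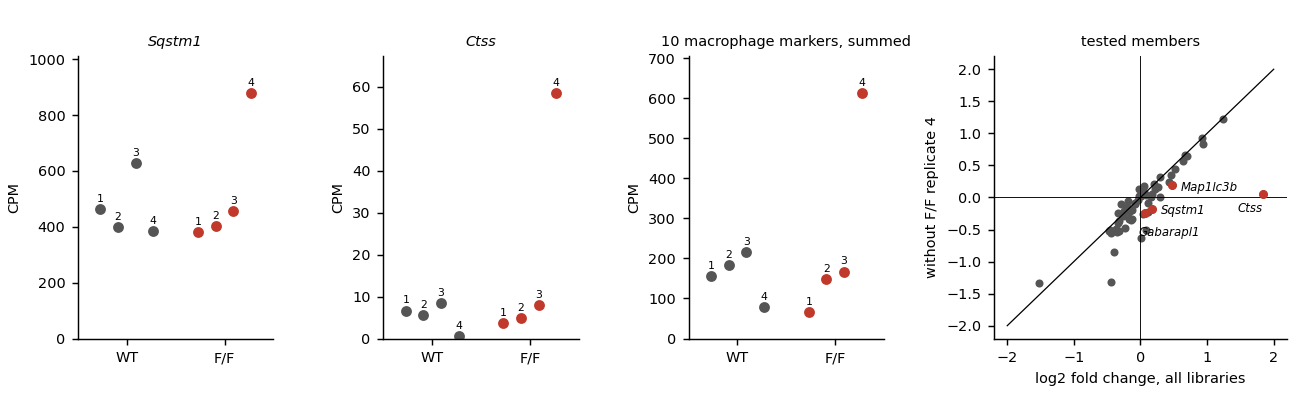
CPM of Sqstm1, Ctss and the sum of 10 macrophage markers in each library (numbers are replicates; F/F is Pdgfra-Cre:Lmna F/F, LMNA-deficient), and the log2 fold change of each tested member with all 8 libraries (x axis) and without LMNA-deficient replicate 4 (y axis). Replicate 4 of the LMNA-deficient group is the highest library in the first 3 plots, and among the log2 fold changes Ctss drops from 1.84 to 0.06.

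Without LMNA-deficient replicate 4 the median log2 fold change of the 57 members was -0.10, where that of all genes was 0.00, and 24 members had a higher and 33 a lower fitted level. At an unadjusted p under 0.05, 3 members (5.26%) were then higher (Gabarapl2, Atg101 and Atp6v1d) and 7 (12.3%) were lower, beside 5.27% and 5.79% of all genes in the same fit, with none called after adjustment. The 7 were Gabarap at -0.55 (SE 0.19), Map1lc3a at -0.49 (SE 0.21), Atp6v0b at -0.51 (SE 0.21), Atp6v1f at -0.54 (SE 0.22), Ctsa at -0.52 (SE 0.21), Ctso at -0.53 (SE 0.24) and Ctsf, a cysteine cathepsin, at -0.85 (SE 0.24). With all libraries Ctsf was at -0.40 (SE 0.31) and Atp6v1f at -0.35 (SE 0.22). Ctsf had 111 CPM in replicate 4 and 34.4 to 59.1 CPM in the other 3 LMNA-deficient libraries, against 69.4 to 93.3 CPM in the WT.

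The V-ATPase joins a V1 sector in the cytosol, which hydrolyses ATP, to a V0 sector in the membrane, which passes protons. Several subunits have a ubiquitous and a tissue-restricted form, and the fibroblasts held the ubiquitous ones. Atp6v1b2 stood at 50.9 ± 9.47 TPM in the WT while Atp6v1b1, the form of kidney and inner ear, stood at 0.966 ± 1.42 TPM (SD, n = 4). Likewise Atp6v0d1 stood at 137 ± 22.9 TPM and Atp6v0d2, the form of osteoclasts, at 0.950 ± 0.722 TPM (SD, n = 4). Most abundant per length were Atp6v1f of V1 at 366 ± 41.1 TPM and Atp6v0e of V0 at 361 ± 40.1 TPM (SD, n = 4).

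Of the 8 tested V0 genes, 7 (87.5%) had a lower fitted level in the LMNA-deficient fibroblasts, beside 48.2% of all genes, with a median log2 fold change of -0.31. At an unadjusted p under 0.05, 1 (12.5%) was lower, beside 5.65% of all genes, and with limma-voom 0 were. The summed level of the V0 genes was 478 ± 49.3 CPM in the WT and 383 ± 31.0 CPM in the LMNA-deficient libraries (SD, n = 4). Single libraries ranged from 410 to 518 CPM in the WT and from 361 to 429 CPM in the LMNA-deficient group, so that WT replicate 1 overlapped with the second group. The sign of the median was negative in all 16 alternatives, between -0.40 and -0.25. Of the 9 tested V1 genes, 5 were higher and 4 lower, with a median of 0.03 and sums of 504 ± 58.5 and 538 ± 113 CPM (SD, n = 4). At an unadjusted p under 0.05, 2 (22.2%) were higher, beside 6.24% of all genes, and 0 lower. The difference between the sectors was not tested.

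Atp6v0b, a proteolipid of the proton-carrying ring (chromosome 4 from 117884326 to 117887333), had 78.0, 94.1, 105 and 79.3 CPM in the WT and 69.2, 57.5, 60.7 and 71.7 CPM in the LMNA-deficient libraries. All LMNA-deficient libraries lay below all WT libraries. The log2 fold change was -0.46 (SE 0.20, edgeR adjusted p = 0.374). The other V0 genes with over 20 CPM in each mean, Atp6v0d1, Atp6v0a2, Atp6v0e, Atp6v0a1 and Atp6v0c, had log2 fold changes from -0.34 to -0.14 with SEs from 0.20 to 0.34. Without LMNA-deficient replicate 4, Atp6v0e was at -0.10 (SE 0.24) and Atp6v0c at -0.35 (SE 0.36), while Atp6v0e was at -0.64 without LMNA-deficient replicate 2. Atp6v0a4 and Atp6v0e2 were too low to place, with SEs of 1.45 and 1.06.

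Atp6v1d, part of the central shaft that turns with ATP hydrolysis (chromosome 12 from 78840725 to 78861638), had 29.1, 18.6, 28.0 and 22.6 CPM in the WT and 30.6, 38.1, 47.7 and 43.5 CPM in the LMNA-deficient libraries. The second group lay above the first without overlap, though WT replicate 1 and LMNA-deficient replicate 1 were close. Its log2 fold change was 0.69 (SE 0.26, edgeR adjusted p = 0.309). Atp6v1h, the regulatory subunit (chromosome 1 from 5070018 to 5162529), had 49.6, 42.8, 50.8 and 37.3 CPM in the WT and 50.4, 61.9, 71.5 and 75.2 CPM in the LMNA-deficient libraries, with 1 overlapping pair of libraries. On the log2 scale it differed by 0.52 (SE 0.22, adjusted p = 0.372). Atp6v1a, the catalytic subunit, gave 0.21 (SE 0.25), and Atp6v1e1, of the outer stalk, 0.29 (SE 0.29). The value of Atp6v1e1 came from replicate 4, with 124 CPM against 46.2 to 78.5 CPM in the other LMNA-deficient libraries, and was 0.00 (SE 0.27) without it.

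**Figure D4:**
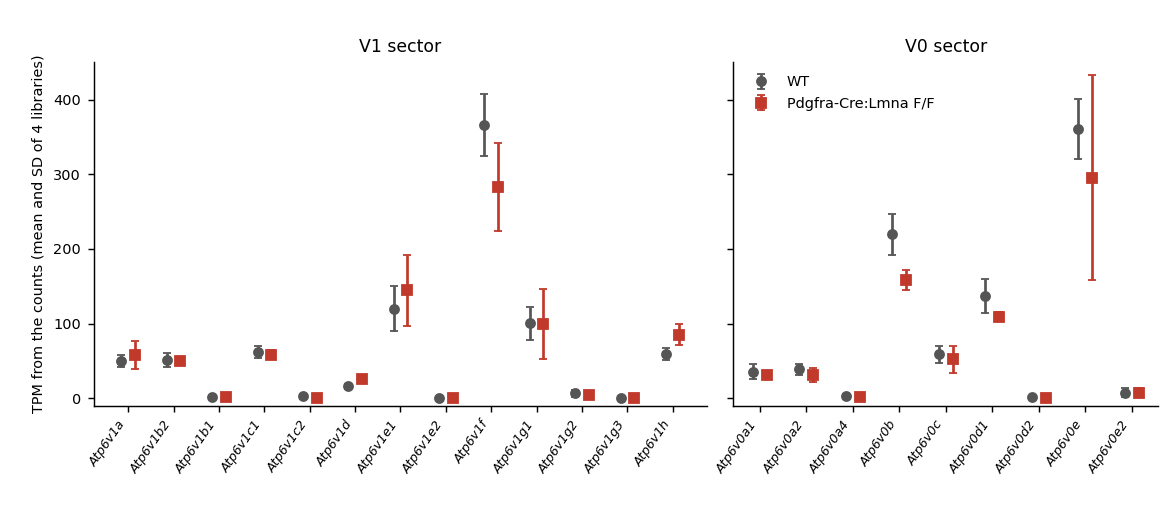
TPM of the V-ATPase subunit genes named Atp6v1 and Atp6v0 (mean and SD of 4 libraries, circles WT, squares LMNA-deficient). Atp6v1f and Atp6v0e stand highest, the tissue-restricted forms lie near 0, and Atp6v0b is at 219 ± 27.3 TPM in the WT and 158 ± 13.5 TPM in the LMNA-deficient group.

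The other 14 members had too few counts to be tested. They were Atg9b, Atp6v0d2, Atp6v1b1, Atp6v1c2, Atp6v1e2, Atp6v1g3, Atp6v1fnb, Ctse, Ctsg, Ctsj, Ctsm, Ctsq, Ctsr and the pseudogene Atg4a-ps, and their highest count in any library was 35, for Atp6v1b1. Ctsg, a serine protease of neutrophils, reached 4 counts, and the placental cathepsins Ctsj, Ctsm, Ctsq and Ctsr had 0 counts in 6 of the 8 libraries each. Between 11 and 24 counts were nevertheless found in single libraries for Ctsq and Ctsm and 28 for Ctsr.

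The pathway's other genes, 148 in 8 lists, had 138 tested and 0 called by edgeR with the main settings. No filter, DESeq2 and limma-voom each called 1 gene of the other autophagy machinery and 1 of the other lysosomal membrane proteins. The fit with 1 RUVr factor called 1 of the former. In the main fit there were 8 higher (5.80%) and 17 lower (12.3%) at an unadjusted p under 0.05, beside the 6.24% and 5.65% of all genes. The lean to lower levels lay with the lysosomal hydrolases and their activators other than the cathepsins. Of the 36 tested genes of that list, 25 had a lower fitted level, 11 (30.6%) were lower at an unadjusted p under 0.05 and 0 were higher. Their median log2 fold change was -0.25, and it was negative in all 16 alternatives, between -0.36 and -0.19. Leaving out 1 library left 5 to 9 of these genes at that p, beside 4.25 to 6.71% of all genes, the fewest of both without WT replicate 4, and without LMNA-deficient replicate 4 there were 9.

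Ppt1, the thioesterase that removes palmitate from proteins, had 127, 87.0, 104 and 130 CPM in the WT and 84.7, 65.0, 67.9 and 67.5 CPM in the LMNA-deficient libraries. The groups did not overlap, and the log2 fold change was -0.66 (SE 0.20, edgeR adjusted p = 0.196). Hexa and Gm2a, the enzyme subunit and the activator that together clear GM2 ganglioside, gave -0.77 (SE 0.26) and -0.55 (SE 0.19), the second without overlap. Glb1 encodes lysosomal β-galactosidase, the enzyme that staining for senescence reads. The study found this staining induced in heart sections of older Pdgfra-Cre:Lmna F/F mice. That is enzyme activity in whole tissue, and not RNA of sorted fibroblasts. Glb1 had 63.0, 56.4, 52.2 and 63.1 CPM in the WT and 47.8, 14.3, 48.9 and 34.1 CPM in the LMNA-deficient libraries. Every LMNA-deficient library lay below every WT library, and the log2 fold change was -0.70 (SE 0.32, edgeR adjusted p = 0.411), or -0.43 without LMNA-deficient replicate 2, the lowest library. The other 7 of the 11 were Pla2g15, Arsa, Manba, Ids, Sgsh, Psap and Tpp1, with log2 fold changes from -1.05 to -0.50. With 1 library left out, an unadjusted p under 0.05 was kept in 8 of 8 fits for Pla2g15 and 7 for Arsa. It was kept in 4 for Manba, 4 for Ids, 3 for Sgsh, 2 for Psap and 1 for Tpp1. Sgsh ran from -1.12 to -0.45 over these fits.

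**Figure D5:**
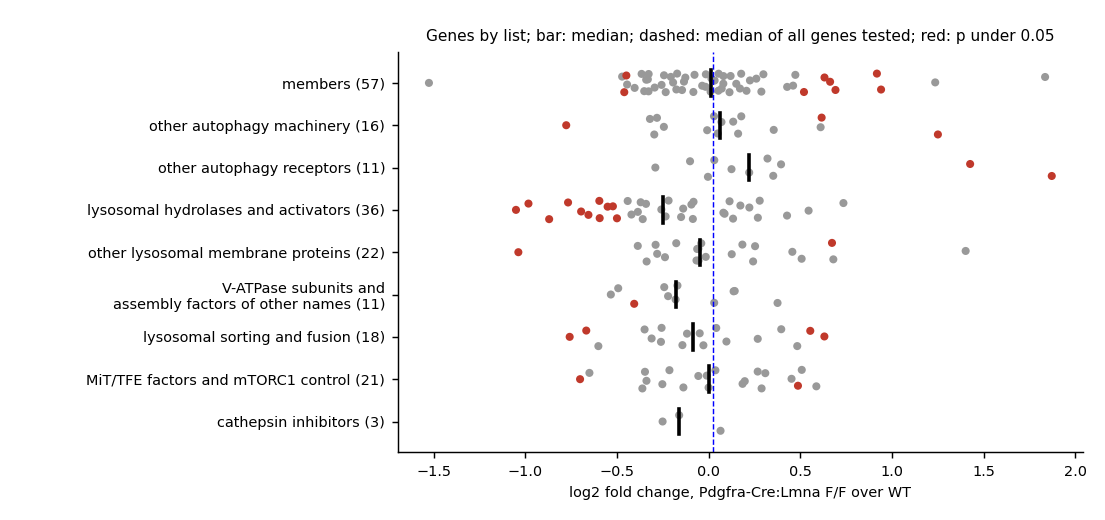
Log2 fold change (x axis, LMNA-deficient over WT) of the tested members and of 8 lists of other pathway genes, with the number tested in brackets. Bars are medians, the dashed line is the median of all genes tested, and red points have an unadjusted p under 0.05, of which the hydrolase list holds 11, all left of 0.

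Among the other autophagy genes, Vmp1, a membrane protein of the endoplasmic reticulum that is needed to form autophagosomes, had the lowest adjusted p in the main fit. It had 52.2, 56.9, 119 and 80.6 CPM in the WT and 173, 245, 189 and 131 CPM in the LMNA-deficient libraries. The groups did not overlap, and the log2 fold change was 1.25 (SE 0.27, edgeR adjusted p = 0.0717). Over the alternatives its adjusted p ran from 0.00201 to 0.213, so that some of them called Vmp1. Rubcn, which encodes Rubicon, an inhibitor of autophagosome maturation, gave -0.78 (SE 0.24, edgeR adjusted p = 0.194), with 104 to 159 CPM in the WT and 51.1 to 105 CPM in the LMNA-deficient libraries. The receptor genes Bnip3, for mitochondria, and Retreg1, for the endoplasmic reticulum, gave 1.43 (SE 0.58) and 1.87 (SE 0.79), both highest in LMNA-deficient replicate 4 at 58.3 and 30.3 CPM. Without that library they gave 0.69 and 1.01.

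Tpcn1, an ion channel of endosomes and lysosomes, had 173, 201, 125 and 175 CPM in the WT and 115, 73.3, 89.0 and 51.4 CPM in the LMNA-deficient libraries, without overlap. On the log2 scale the difference was -1.04 (SE 0.25, edgeR adjusted p = 0.101, from 0.00822 to 0.258 over the alternatives). Tpcn1 was thus called in some of the alternatives. Sort1, a sorting receptor for lysosomal proteins, and Vps16, a subunit of the complexes that tether vesicles to lysosomes, also did not overlap, at -0.67 (SE 0.21) and 0.55 (SE 0.22). Atp6ap1, an accessory subunit of the V-ATPase, gave -0.41 (SE 0.18), with 278 to 341 CPM in the WT and 215 to 253 CPM in the LMNA-deficient libraries. Of the 21 tested genes of TFEB relatives and mTORC1 control, 10 were higher and 11 lower with a median of 0.00, Rheb, the activator of mTORC1, at 0.49 (SE 0.22) and Rptor, its scaffold, at -0.70 (SE 0.33). The cathepsin inhibitors Cst3 and Cstb gave -0.16 (SE 0.25) and -0.25 (SE 0.30).

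Among 20 listed transcripts that respond to tissue dissociation, 3 were called (Ier3, Btg2 and Nr4a1), all higher in the LMNA-deficient fibroblasts, beside 0.407% of all genes. At an unadjusted p under 0.05, 14 (70.0%) were higher, beside 6.24% of all genes, and 0 were lower, and 12 had every LMNA-deficient library above every WT library, beside 4.06% of all genes. The number called was 0 without WT replicate 1, WT replicate 4 or LMNA-deficient replicate 3, and 12 with DESeq2 or no filter. The median log2 fold change of the 20 was 1.34, and their part in the members' values was not tested. This list, like the others, was chosen with earlier results of these data known, so these shares are descriptions only.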

How the data were processed

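RNA of FACS-isolated PDGFRA+ ventricular cells was sequenced by the authors as 150 bp paired-end reads from strand-specific, ribosomal RNA depleted libraries with a RIN above 8. Per the study's methods, reads were aligned to mm10 with HISAT2 and counted with featureCounts on GENCODE genes, and RUV was applied before DESeq2. The submitters' processing notes name FastQC and DESeq2. The values deposited are unscaled read counts, 1 whole number for each gene symbol and library. The GENCODE release and the strand setting of the counting are not given in the sources used here, so members whose exons overlap a gene on the other strand (Atg4d, Atg14, Atp6v0b, Atp6v1h, Ctsz, Sqstm1 and others) may share reads with it, as may Ctsd and Ctsl on the same strand and Atp6v0c with its retrocopies.

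Groups and replicate numbers came from the sample labels, 4 libraries a group. The labels do not state that each library is 1 mouse, so p-values measure the spread between these libraries. The tests used edgeR 4.0.16 in R 4.3.3 (TMM factors, filterByExpr, quasi-likelihood test, genotype as the only term, Benjamini-Hochberg over 13036 genes, called at an adjusted p under 0.05), with limma 3.58.1 and DESeq2 1.42.0 for alternatives, and tables were made in Python 3.11.15. The SE is the log2 fold change divided by the square root of F. TPM were computed here from the counts with the median spliced length of GENCODE M21 basic coding transcripts, which also gave gene positions. Total counts were 2080555 to 12502949, and a library with 3 counts or fewer was taken as at the floor, for counting error only. The procedure was tested on simulated counts.

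The members and lists were chosen with earlier results of these data known. Genes were named by rule: Lmna, members with an unadjusted p under 0.05 or no overlap, the lowest p and the 2 highest levels per length in each role, the 11 listed members, members not tested, and the 2 lowest p of each other list with every called gene and Glb1. Ctss, Ctsk, Ctsf and the remaining genes named were added after their values were seen. Alternatives were RLE and upper-quartile factors, no filter, at least 10 counts in every library, DESeq2, limma-voom with quality weights, 1 RUVr factor, the replicate block, and each library left out. For the promoter motifs, a window of only the 250 bases before the start was also read. The counts at an unadjusted p and the hydrolase results under these settings were added after seeing the data.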

Additional observations from a re-analysis of the deposited data

Results flagged for a closer look

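In groups of 4 libraries, the gap between the most extreme library and its nearest neighbour was compared with the range of the group, and a share above Dixon's critical value for 4 values marked a library as far from the others. Of 190 groups examined, 12 were marked, where chance alone marks about 9.5. In Pdgfra-Cre:Lmna F/F replicate 4 these were Ctss (0.921), Atg13 (0.948), Atg9a (0.891), Sqstm1 (0.851) and the summed cardiomyocyte markers (0.886), all at the high end. Atg9a had 60.3 CPM there and 34.3 to 37.1 CPM in the other 3 libraries of the group. Atg13 had 44.0 CPM there and 39.0 to 39.3 CPM in the other 3, all within the WT range of 29.2 to 50.3 CPM. Pdgfra-Cre:Lmna F/F replicate 1 was far above its group for Ppt1 (0.850) and for the summed erythroid markers (0.954), and replicate 2 far below it for Vps16 (0.865). Replicate 3 was far above for Ier3 (0.893) and Nr4a1 (0.855) of the dissociation response. In the WT, replicate 3 was far below for Atp6v1g2 (0.836), and replicate 2, the smallest library, was far above for Rptor (0.939) with 97.1 CPM against 59.0 to 61.3 CPM.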

How the results depend on the processing

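The count of called members was 0 and the sign of the hydrolase median negative in every setting. All genes called numbered 274 with no filter, 309 with DESeq2, 126 with limma-voom, 83 with 1 RUVr factor and 13 to 76 with 1 library left out, against 53. Leaving out 1 library gave 2 to 8 members higher, 0 to 7 lower and 5 to 9 hydrolases lower at an unadjusted p under 0.05, against 6, 2 and 11, while the shares of all genes ran from 4.63 to 6.35% higher and 4.25 to 6.71% lower. The cause of these shifts was not tested.

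Replicate numbers did not pair the libraries, with correlations of same-numbered deviations between -0.03 and 0.04. With the replicate block, 36 genes were called, and 4 members (7.02%) were higher and 0 lower at an unadjusted p under 0.05, beside 4.87% and 5.32% of all genes.

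Of 1367 values, of the 57 tested members and 29 other genes, 1272 kept sign and side of the threshold, 71 in 25 genes reversed, 15 lost and 9 gained a call. Outside the leave-one-out fits, reversals with limma-voom were Ctsd 0.011, Gabarapl1 -0.017, Ulk1 -0.021, Atg7 -0.0024, Atp6v0e2 -0.80, Atp6v1b2 0.11, Atp6v1g1 -0.33 and Ctsc 0.17. With the block they were Tfeb -0.0020, Atg10 -0.17, Atp6v0e2 -0.44 and Atp6v1g1 -0.12, with no filter Lamp2 -0.0041 and Atp6v0e2 -0.017, with at least 10 counts Atg16l2 0.00093 and Atg2b 0.00038, and with RUVr Atp6v1g2 0.33 and Ctsc 0.045. With 1 library left out, the reversing ranges were Atg10 -0.51 to 0.41, Atg13 -0.035 to 0.22, Atg14 -0.12 to 0.73, Atg16l2 -0.40 to 0.13, Atg2b -0.13 to 0.10, Atg4b -0.16 to 0.016, Atg7 -0.064 to 0.17, Atp6v0c -0.35 to 0.018, Atp6v0e2 -0.63 to 0.41, Atp6v1a -0.026 to 0.38, Atp6v1b2 -0.12 to 0.065, Atp6v1c1 -0.17 to 0.0013, Atp6v1g1 -0.26 to 0.26, Cst3 -0.32 to 0.11, Ctsb -0.040 to 0.43, Ctsc -0.65 to 0.40, Ctsd -0.21 to 0.064, Ctsk -0.085 to 0.25, Ctsw -1.37 to 0.32, Gabarapl1 -0.24 to 0.19, Lamp2 -0.081 to 0.14, Sqstm1 -0.18 to 0.35, Tfeb -0.25 to 0.22 and Ulk1 -0.22 to 0.28. Leaving out 1 library moved the log2 fold change of 43 of the 57 members by over 1.5 times or turned its sign in at least 1 fit, most of them small, with a median size of 0.18. Among the tested members, Atp6v0a4, Atp6v0e2, Atp6v1g2 and Ctsw had the most libraries at 3 counts or fewer.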
